A study of Mus musculus with 2 samples.

Results

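A window of 71 neighbouring rows, R28200 to R28270, was taken out of the 34099 rows of an scRNA-Seq count table of mouse dorsal epidermis. Each row is a gene, but the count tables used here number their rows without naming them, so every gene is given as its row number. The window was chosen by measured values. It surrounds R28226, R28238 and R28239, which stood out in an earlier comparison of the same libraries, so the differences between the libraries given here describe rows selected on such differences and were not tested. Rows that neighbour each other in the table need not neighbour each other in the genome, and whether the window holds a cluster of similar genes was not tested.

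The study deleted *Supt6* in mouse skin and deposited a control and a *Supt6*-KO library, 1 of each, from epidermis collected 5 days after the last injection. The control mouse was labelled as WT and received corn oil, whereas in the paper the mice given corn oil were *Supt6* fl/fl, so the control genotype is uncertain. The *Supt6*-KO mouse was labelled as a *Supt6* knockdown and received tamoxifen. By the paper it carried K14-CreERT and *Supt6* fl/fl, a design in which Cre is driven by the keratin 14 promoter of basal keratinocytes, and cells that never expressed keratin 14 keep the gene. Strain is not given in the sources used here, and each group is given as n = 1. Genotype, injected compound, mouse and library changed together and cannot be told apart. Neither the loss of *Supt6* nor the identity of the tissue could be checked on marker genes, because rows were not named.

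SPT6, the product of *Supt6*, is a histone chaperone that accompanies elongating RNA polymerase II. The epidermis is renewed by keratinocytes that leave the basal layer and exchange their sets of structural proteins as they move outward. Several of these proteins belong to families encoded by similar genes that lie side by side on a chromosome, and members of such families can differ in the layer, body site or stress state in which they are transcribed. Cell Ranger counts a read only when it can be assigned to a single gene, so reads from sequence shared by near-identical genes are lost. The level of any row that has such a copy is therefore uncertain.

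Cells were barcodes with at least 500 detected rows. There were 8717 such cells in control, with a median of 10387 unique molecular identifiers (UMIs, each standing for 1 captured RNA molecule) per cell, and 11829 in *Supt6*-KO, with a median of 8631. They held 104134125 and 115742647 UMIs, respectively. The libraries shared 23 barcodes. Levels are counts summed over the cells of a library and scaled to counts per 1000000 UMIs (CPM). Intervals in parentheses are exact 95% intervals that cover counting error only and not the variation between mice, and the groups could not be tested against each other, each having 1 library. For shares of cells with a UMI, 2000 UMIs were drawn at random from every cell (thinning), so that all had the same depth. This left out 569 control and 1195 *Supt6*-KO cells that held fewer, and shares of cells are of the thinned cells unless stated otherwise. Cells were not assigned to types, so no cell type known to lack a row could serve as a measure of free RNA, and doublets were not removed.

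The window held 14394 CPM, or 1.44% of all UMIs, in control and 27177 CPM, or 2.72%, in *Supt6*-KO. Most of this came from few rows. The 6 rows that reached 200 CPM, R28226, R28227, R28229, R28238, R28239 and R28242, held 92.5% of the window's UMIs in control and 95.8% in *Supt6*-KO. A further 12 rows reached between 22.6 and 189.7 CPM in the library where they were higher. Of the rest, 9 rows lay between 5 and 20 CPM, 8 between 1 and 5 CPM, and 29 above 0 but under 1 CPM in both libraries, and 7 had no UMI in the cells of either library. With 3 UMIs taken as the limit that a count of 0 allows, such a row could reach 0.0288 CPM in the control library and 0.0259 CPM in the *Supt6*-KO library. The window had quiet borders, since R28200 had no UMI in either library, R28199, just outside, had 1 UMI in each, and R28270 rose from 1 UMI to 54. R28271, just outside the other end, was at 7.66 and 7.98 CPM.

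Of the 18 window rows that reached 20 CPM in a library, 3 were at least 2-fold higher in *Supt6*-KO and 3 were at least 2-fold lower. Over all 5990 rows of that level, 5.11% were at least 2-fold higher and 16.1% at least 2-fold lower. At a limit of 1.5-fold, 7 window rows were higher and 5 lower, beside 11.9% and 34.8% of all rows. Because the window was chosen on this contrast, nothing is read from these shares. The median log2 ratio of *Supt6*-KO over control was 0.36 over the 18 rows and −0.31 over the 5990. Scaling with TMM factors raised every log2 ratio by 0.17, which put the median of all rows at −0.15.

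The 3 higher rows were R28226, R28227 and R28238. R28226 was at 23.6 CPM (22.7 to 24.6) in control and 5137 CPM (5124 to 5150) in *Supt6*-KO, a ratio of 217 (209 to 226). R28227, the next row, was at 105.6 and 3867 CPM, a ratio of 36.6 (35.9 to 37.3). R28238 was abundant in both libraries, at 3245 CPM (3234 to 3256) in control and 14930 CPM (14908 to 14953) in *Supt6*-KO, a ratio of 4.60 (4.58 to 4.62). The higher rows thus comprised a pair that was scarce in control and a row that was already abundant there.

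The 3 lower rows were R28239, R28242 and R28243. R28239 was the most abundant row of the window in control, at 7939 CPM (7922 to 7956), and was at 8.55 CPM (8.03 to 9.10) in *Supt6*-KO, where it was 928-fold lower (872 to 989). The counts behind these levels were 826716 and 990 UMIs. R28242 was at 925 and 370 CPM, 2.50-fold lower (2.47 to 2.53), and R28243 at 58.2 and 22.6 CPM, 2.57-fold lower (2.46 to 2.69). When every cell was scaled to the same total before averaging, the ratio of *Supt6*-KO over control for R28243 was 0.721. R28243 was then no longer 2-fold lower. For R28239 this ratio was 0.00162, against 0.00108 in the sums, so its fold depended on the scaling. The fall of R28239 was therefore far larger than those of R28242 and R28243. Without thinning, R28239 was still detected in 2.89% of *Supt6*-KO cells, R28242 in 24.8% and R28243 in 10.3%.

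The other 12 rows changed by less than 2-fold. The most abundant of them was R28229, at 1078 CPM in the control library and 1712 CPM in the *Supt6*-KO library, a ratio of 1.59 (1.58 to 1.60). The ratio was 1.71 for R28260, 1.54 for R28266, 1.503 for R28211, 1.43 for R28261, 1.34 for R28269 and 1.24 for R28213. It was 1.08 for R28247, 0.895 for R28257, 0.818 for R28210, 0.609 for R28267 and 0.583 for R28256. With TMM factors the ratio of R28257 was 1.005, so its direction depended on the scaling. Levels within this group were modest apart from R28229, between 20.3 and 189.7 CPM over both libraries.

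Of the 17 rows that reached between 1 and 20 CPM in the higher library, 4 were at least 2-fold higher in *Supt6*-KO, 5 were at least 2-fold lower and 8 were within 2-fold. Over all 6553 rows of that level, 11.3% were at least 2-fold higher and 16.3% at least 2-fold lower, and nothing is read from these shares either. R28225, R28237 and R28228 were chosen among them after their values were seen. R28225, the row before R28226, fell from 718 UMIs (6.90 CPM) to 9 UMIs (0.0778 CPM). R28237, the row before R28238, fell from 488 UMIs to 13 UMIs. R28228, the row after R28227, rose from 20 UMIs to 524 UMIs. In control, R28225 was found in only 135 cells, and the top 1% of cells held 91.2% of its UMIs. R28237 was found in 339 control cells, and its highest count in a cell was 67 UMIs. In the sums, large changes in opposite directions thus stood in directly adjacent rows around R28225 to R28228 and around R28237 to R28239. For R28225 and R28237 they rested on few control cells.

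**Figure D1:**
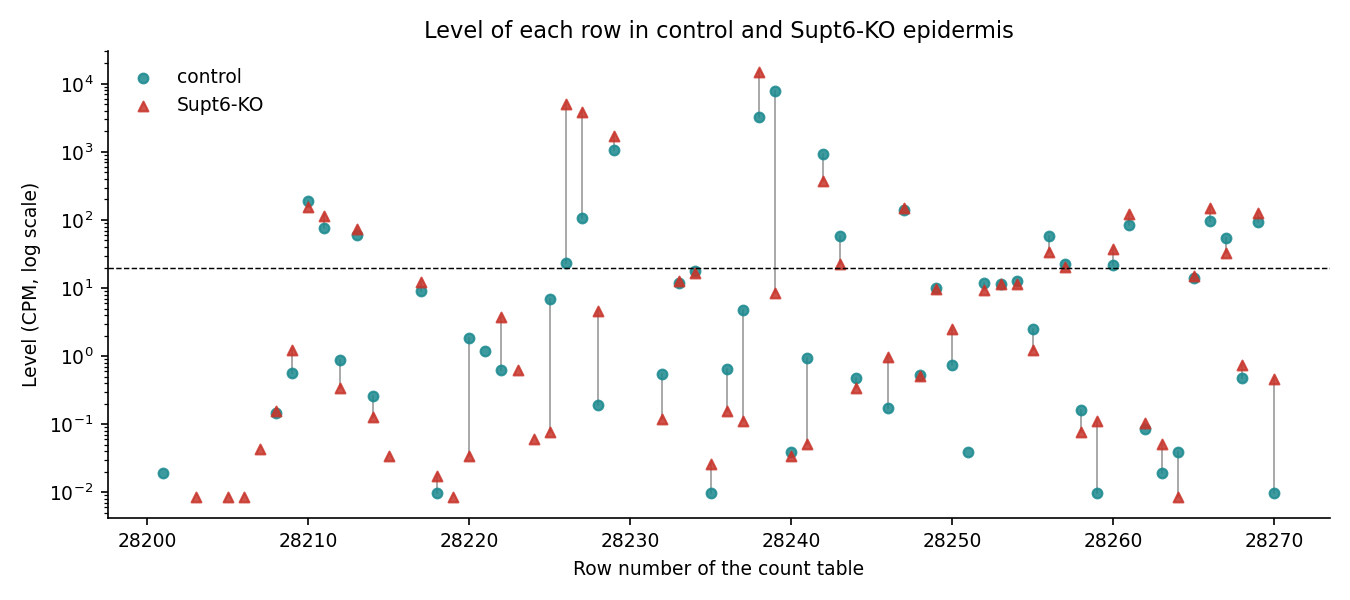
Level of each of the 71 window rows in the control and *Supt6*-KO libraries, as CPM on a log axis, against the row number. R28239 stands highest in control at 7939 CPM and near 8.55 CPM in *Supt6*-KO, while R28226, R28227 and R28238 lie higher in *Supt6*-KO.

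The adjacent rows R28238 and R28239 exchanged places between the libraries. Their summed level was 11184 CPM (11163 to 11204) in the control library and 14939 CPM (14917 to 14961) in *Supt6*-KO, a ratio of 1.34 (1.33 to 1.34). Within that sum, R28239 held 71.0% (70.9 to 71.1) in control and 0.0573% (0.0538 to 0.0609) in *Supt6*-KO. The composition of the pair therefore changed far more than its total.

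The switch was seen per cell as well as in the sums. After thinning, R28239 was detected in 85.5% of control cells (84.7 to 86.2) and in 0.950% of *Supt6*-KO cells (0.774 to 1.15). R28238 was detected in 62.7% of control and 96.1% of *Supt6*-KO cells. Without thinning, R28239 was found in 97.3% of control cells and in 342 *Supt6*-KO cells, or 2.89%. Few *Supt6*-KO cells thus carried even 1 UMI of R28239 at full depth.

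In control the rows were mostly found together. Both were detected in 57.7% of thinned control cells, R28239 alone in 27.7%, R28238 alone in 5.00% and neither in 9.54%. In *Supt6*-KO, R28238 alone was detected in 95.2% of cells, both in 0.940%, neither in 3.85% and R28239 alone in 1 cell. The exchange was therefore between libraries, and R28238 and R28239 did not exclude each other among control cells.

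The share of R28239 was then computed in each cell with at least 10 UMIs of the pair, without thinning. There were 5446 such cells in control, or 62.5% of the cells, and 8323 in *Supt6*-KO, or 70.4%. The median share was 72% in control, with 5% of cells below 23.9% and 5% above 99.6%. Of the control cells 75.6% lay between 10% and 90%, 23.2% were at or above 90%, and 1.25% were at or below 10%. Control cells thus spread over the whole range, with an SD of 23.4 percentage points, where counting error alone would give 7.22.

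*Supt6*-KO cells did not spread in this way. Of the 8323 cells, 8291 (99.6%) had an R28239 share at or below 10%, and 8014 (96.3%) had no R28239 UMI at all. The share lay between 10% and 90% in 31 cells and at or above 90% in 1 cell. In control, 68 cells lay at or below 10%, the range that held nearly all *Supt6*-KO cells.

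**Figure D2:**
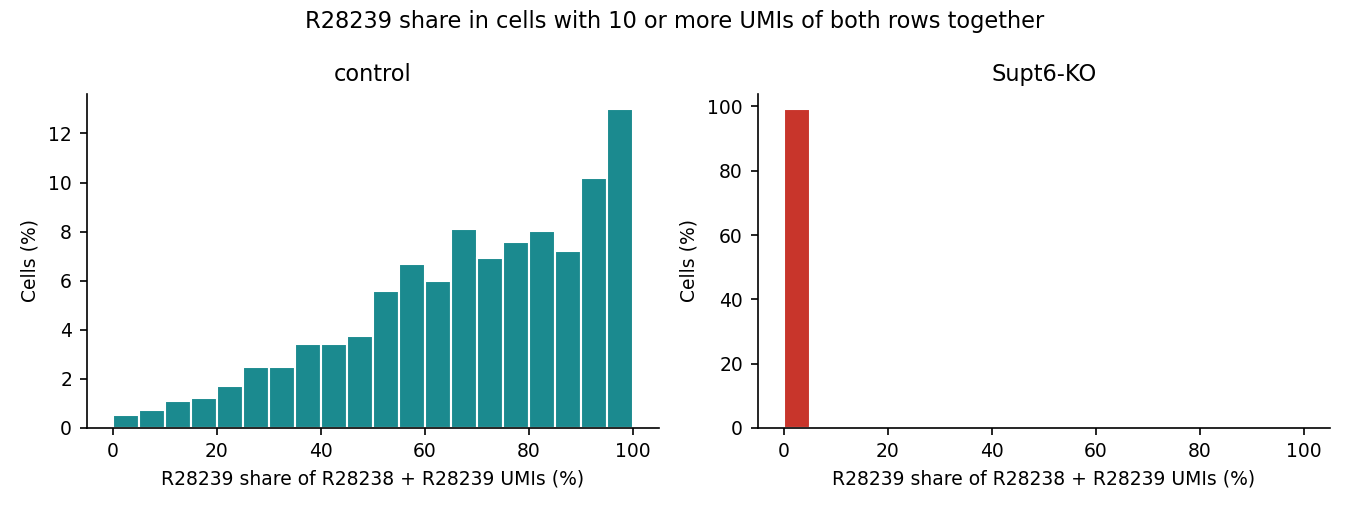
Histogram of the R28239 share of the summed R28238 and R28239 UMIs, in percent, over cells with at least 10 UMIs of the pair, as the percent of cells in each library. Control cells cover the whole axis around a median of 72%, and 99.6% of *Supt6*-KO cells lie at or below 10%.

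The control share stayed high at every depth and level of the pair. It was 70.8%, 66.2%, 61.6% and 73.8% from the shallowest to the deepest of 4 equal classes of control cells, while the summed level rose from 3708 to 16508 CPM. In *Supt6*-KO it was 0.172% in the shallowest class and 0.0450% in the deepest. Over classes of the summed level, the control share stayed between 63.7% and 74.9% and the *Supt6*-KO share between 0.0154% and 0.663%. The difference between the libraries was present in every class of depth and level. The pair was chosen on this difference, so the classes describe it and do not test it.

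Barcodes with fewer than 500 detected rows, which were not counted as cells, showed the same contrast. There were 368 of them in control and 1142 in *Supt6*-KO. R28239 was at 3797 CPM in those of control and at 2.41 CPM, from 2 UMIs, in those of *Supt6*-KO. R28238 was at 1317 and 8595 CPM. R28239 took 74.2% of the pair (71.8 to 76.6) in these control barcodes and 0.0280% (0.00339 to 0.101) in these *Supt6*-KO barcodes. The abundant rows were thus also plentiful outside the called cells, and the part of free RNA in the share of cells with a UMI was not tested.

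R28226 and R28227 changed from rare to common. R28226 was detected in 1.01% of thinned control cells and 78.3% of thinned *Supt6*-KO cells, and R28227 in 10.6% and 88.8%. Without thinning, R28226 was found in 223 control cells, or 2.56%, and in 11444 *Supt6*-KO cells, or 96.7%. Both rows were detected together in 71.1% of thinned *Supt6*-KO cells. Within the sum of the pair, R28226 held 18.3% (17.6 to 18.9) in control and 57.1% (57.0 to 57.1) in *Supt6*-KO. The control share rested on 48 cells, chosen for at least 10 UMIs of R28226. It was 54.7% (53.1 to 56.2) in them and 3.23% (2.88 to 3.601) in the other 8669 control cells.

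Unlike the pair of R28238 and R28239, the summed level of R28226 and R28227 changed along with its balance, from 129 to 9003 CPM. At least 10 UMIs of these rows were found in 294 control cells (3.37%) and 8118 *Supt6*-KO cells (68.6%). In the *Supt6*-KO cells the median share of R28226 was 46.2%, and 5% of cells lay below 7.69% and 5% above 77.8%. In the 294 control cells the median share was 0%, and 78.6% of them lay at or below 10%. The balance was thus broad from cell to cell in *Supt6*-KO, whereas most control cells with these rows held mainly R28227.

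The little R28226 that control held came from few cells. The 1% of control cells with the most R28226 contributed 94.5% of its UMIs, against 12.9% in *Supt6*-KO. In 48 control cells, or 0.551%, at least 10 UMIs of R28226 were counted, and these cells held 87.5% of the control UMIs of the row. Their median depth was 21338 UMIs, above the 10314 of control cells without R28226. None of the 48 cells carried a barcode shared with the other library, but only 20 control cells did, so this tells little. Their mean Scrublet score, a measure of likeness to simulated doublets, was 0.0721 against 0.0508, and the part of doublets in them was not tested.

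These 48 control cells resembled *Supt6*-KO cells in some rows of the window and not in others. R28226 was at 2021 CPM in them, R28227 at 1676 CPM and R28238 at 11795 CPM. In control cells without R28226, R28227 was at 84.9 CPM and R28238 at 3094 CPM. R28239, however, was at 14504 CPM in the 48 cells and at 7774 CPM in the cells without R28226. High R28226 in control thus occurred beside high R28239, a combination that the *Supt6*-KO sums did not show. Because the 48 cells were picked by R28226, their values are a description.

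The remaining R28239 of *Supt6*-KO was concentrated in the same way. The 1% of *Supt6*-KO cells with the most R28239 held 77.4% of its UMIs, against 14.8% in control. In 32 *Supt6*-KO cells R28239 made up more than 10% of the pair, and these held 495 of the 990 UMIs of the row in that library. None of them carried a barcode that the libraries share, but only 19 *Supt6*-KO cells did, so this tells little. In these cells R28238 was at 1428 CPM, against 17376 CPM in the 8291 cells at or below 10%, and R28226 was at 609 against 5861 CPM. Low R28238 is built into the choice of these 32 cells, so their values are a description.

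R28242 was high in the same 32 cells. It was at 11402 CPM in them and at 342.8 CPM in the 8291 other cells. In control, R28242 also rose with the R28239 share, from 420 CPM in cells at or below 10% to 558 CPM between the limits and 2877 CPM in cells at or above 90%. R28229 moved the other way over these control classes, from 1401 to 834 to 364 CPM. Clusters of control cells, formed without the window rows, showed no steady order of this kind. At a resolution of 0.5 the control clusters with the highest R28239 shares, 86.4% and 85.7%, had R28242 at 101.5 and 62.4 CPM, and those richest in R28242, at 4567 and 4229 CPM, had shares of 65.0% and 61.3%. At a resolution of 1.0 the cluster richest in R28242, at 5893 CPM, had a share of 86.6%, and the cluster with the highest share, 91.6%, had R28242 at 93.6 CPM.

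Over all cells of a library, R28229 ran against most of the abundant rows in a graded manner. Cells were grouped by their R28229 UMIs after thinning, as 0, 1 to 4, and 5 or more, with 4122, 2142 and 1884 control cells. Mean R28239 UMIs per control cell fell over these classes from 17.3 to 6.25 to 1.71, and mean R28238 UMIs from 7.54 to 3.59 to 1.35. R28242 fell from 3.69 to 0.842 to 0.107. R28227 did not follow, at 0.189, 0.207 and 0.187 UMIs.

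The same order was seen in *Supt6*-KO, with 3658, 3631 and 3345 cells in the classes. R28238 fell from 44.9 to 23.2 to 5.99 UMIs, R28226 from 13.2 to 8.10 to 2.37, and R28242 from 1.33 to 0.870 to 0.143. R28227 fell less, from 7.75 to 6.72 to 4.35 UMIs. Detection fell far less than the mean, since 65.7% of *Supt6*-KO cells in the highest class still had R28226 against 86.8% in the lowest. R28243, a scarce row, was detected in 5.93% of *Supt6*-KO cells in the lowest class and 0.688% in the highest, and in 9.97% and 0.319% of control cells. The UMIs of every thinned cell sum to a fixed total, and the part of this in such falls was not tested.

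**Figure D3:**
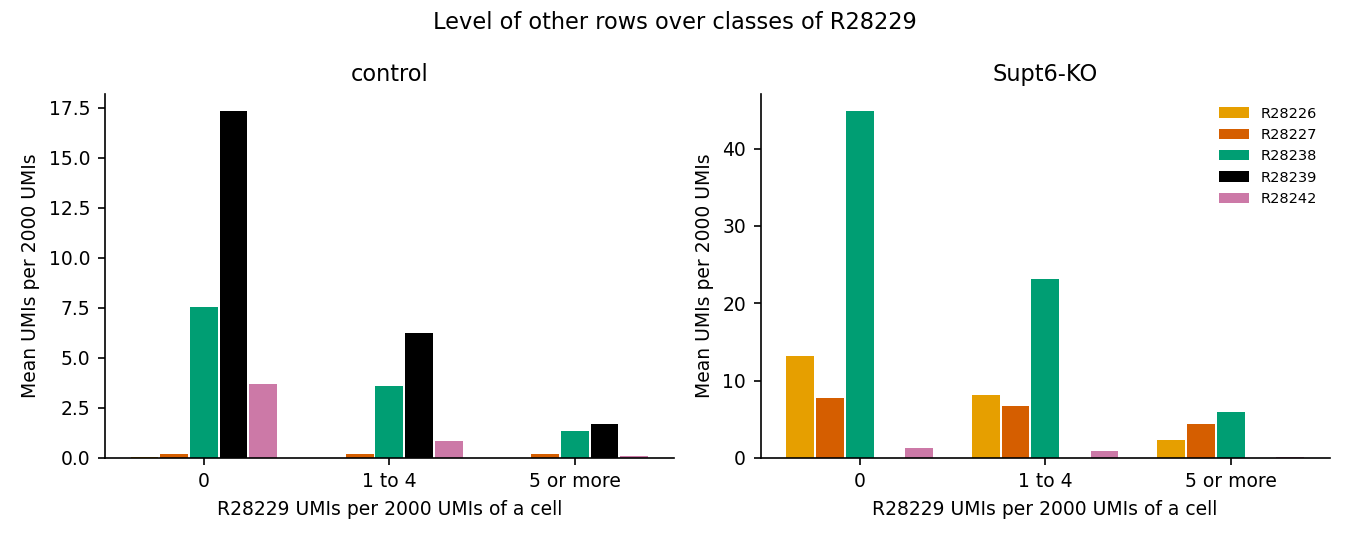
Mean UMIs per cell of the abundant window rows, after thinning to 2000 UMIs, over classes of R28229 UMIs in each library. R28238 falls from 44.9 to 5.99 in *Supt6*-KO and R28239 from 17.3 to 1.71 in control.

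Cells were also grouped by R28242. In control, mean R28229 fell from 2.81 UMIs in the 6406 cells without R28242 to 0.111 in the 280 cells with at least 20 UMIs, and R28238 from 5.67 to 1.31. R28239 fell less, from 11.6 to 6.49 UMIs, and the share of control cells with R28239 rose from 83.5% to 98.2%. In *Supt6*-KO, R28238 fell from 26.2 to 8.17 UMIs and R28226 from 8.55 to 1.34, whereas the share of cells with R28239 rose from 0.551% to 16.8% in the 107 cells with at least 20 UMIs of R28242. Of the 101 thinned *Supt6*-KO cells with R28239, 51 had no R28242 and 18 were in that highest class. By UMIs of R28239, cells without R28242 held 61 of 185 and the highest class held 69. R28239 was thus more frequent in cells rich in R28242 but was not restricted to them.

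Detection of every pair of window rows was compared over the thinned cells, for rows found in 2% to 98% of cells. The measure was the odds ratio, which is the odds of detecting a row in cells with the other row over the odds in cells without it. Pairs with an odds ratio of at least 3 were called co-detected, and pairs at or below 1/3 were called exclusive. In control, 24 rows gave 276 pairs, of which 5 were co-detected, 6 exclusive and 265 between the limits, with a median odds ratio of 1.05. In *Supt6*-KO, 23 rows gave 253 pairs, of which 1 was co-detected, 3 exclusive and 249 between, with a median of 1.01. No pair was exclusive in the strict sense, since every pair was found together in at least 2 cells. The share of pairs past these limits among other rows of the table was not computed. The counts are therefore not read as a property of the window.

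The co-detected pairs of control centred on R28238 and R28239. The highest odds ratio was 18.8, for R28239 and R28243, where 99.1% of the 469 cells with R28243 also had R28239. It was 6.68 in a second random draw, so its size is uncertain. R28238 with R28261 gave 4.50, and R28238 with R28243 gave 4.46. R28238 and R28239 themselves gave 3.97, with 4704 cells holding both against 4368 expected from their separate shares. Within the 10 control clusters with enough cells to compute it, the odds ratio of R28238 and R28239 lay between 1.23 and 4.78, with a median of 1.66. At 5000 UMIs per cell the pair gave 2.79, so its call as co-detected was lost at that depth. Of the 5 co-detected pairs, 4 were called at 5000 UMIs and 4 in the second draw.

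R28229 led the exclusive pairs. In control its lowest odds ratios were 0.133 with R28243, where 58 cells held both against 231.7 expected, and 0.149 with R28239. R28239 was detected in 75.3% of control cells with R28229 and in 95.4% of those without. Within clusters the opposition was weaker. The odds ratio of R28229 and R28239 had a median of 0.590 over 7 clusters and was below 1 in 6 of them, and that of R28229 and R28243 was below 1 in 4 of 6 clusters, with values up to 1.97. R28229 and R28238 gave 0.434 over all control cells. Within 11 clusters their median was 1.20, with 6 above 1. The third lowest was 0.232, for R28243 and R28253, from 3 cells with both against 14.0 expected, which is too few to read further. R28229 and R28242 gave 0.278, with 452 cells against 861 expected, was below 1 in 6 of 9 clusters and gave 0.384 at 5000 UMIs, where its call as exclusive was lost. Of the 6 exclusive pairs, 3 were called at 5000 UMIs and 4 in the second draw.

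In *Supt6*-KO the lowest odds ratio was 0.172, for R28229 and R28238, with R28238 in 94.6% of cells with R28229 and in 99.0% of those without. It was below 1 in each of the 6 clusters in which it was computed. R28226 and R28229 gave 0.427 over all *Supt6*-KO cells. Within 9 clusters their median was 0.957, with 4 above 1. R28229 and R28243 gave 0.304, and R28243 and R28254 gave 0.290 from only 2 joint cells, which became 0.817 in the second draw. The highest were 4.60 for R28229 and R28233, 2.79 for R28226 and R28238, and 2.77 for R28226 and R28243. At 5000 UMIs these were 3.90, 1.31 and 2.38, so the value of R28226 and R28238 depended on depth. Of the 210 pairs that could be computed in both libraries, 0 were co-detected in both and 1 was exclusive in both, R28229 with R28243. In *Supt6*-KO this pair gave 0.355 in the second draw and 0.362 at 5000 UMIs, past the limit of 1/3, so its call there did not hold.

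**Figure D4:**
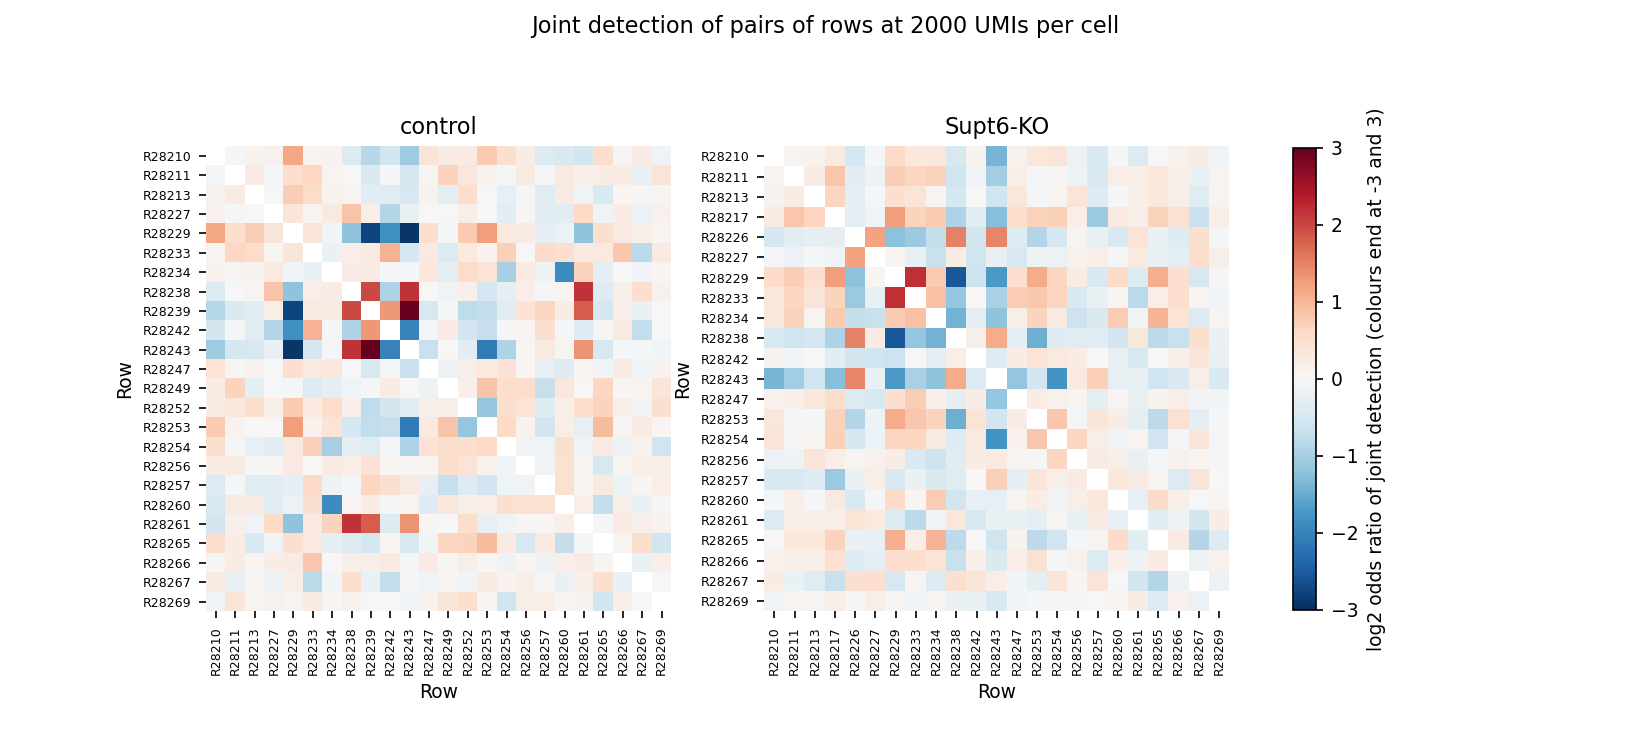
Log2 odds ratio of detecting each pair of window rows in the same cell, for control and *Supt6*-KO, after thinning to 2000 UMIs. Positive values mean that rows were found together more often than their separate shares give, and the row of R28229 holds the lowest values in both libraries.

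Cells were clustered within each library on rows outside the window, and clusters were left unnamed because rows carry no gene names. Among the 15 control clusters with at least 100 cells, the R28239 share of the pair lay between 51.8% and 86.4%, with a median of 65.0%. Among the 11 such clusters of *Supt6*-KO it lay between 0% and 1.84%. The ranges did not overlap. The pair was chosen on this contrast and clusters of a library are not replicates, so these ranges are a description.

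Levels varied widely between clusters of a library. In control, R28239 ranged from 667.5 to 24098 CPM, R28238 from 353 to 7122 CPM, R28229 from 74.9 to 3193 CPM and R28226 from 0.679 to 114 CPM. The cluster with the most R28229 was also the cluster with the least R28239. In *Supt6*-KO, R28226 ranged from 545 to 11592 CPM and R28238 from 1714 to 29893 CPM, with both lowest in the cluster that had the most R28229 (4407 CPM) and both highest in the cluster that had the least (290.2 CPM). R28227 ranged from 1420 to 6716 CPM.

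The ratio of R28226 to R28238 differed between *Supt6*-KO clusters from 0.119 to 1.37, or 11.5-fold. In the *Supt6*-KO barcodes with fewer than 500 rows it was 0.396, and over all *Supt6*-KO cells it was 0.344. In control it was 0.0571 in such barcodes, from 19 UMIs of R28226, and 0.00728 in cells, and R28226 was at 75.1 CPM in those barcodes against 23.6 CPM in cells. The share of thinned cells with R28226 ranged from 58.1% to 97.9% over the *Supt6*-KO clusters and from 0% to 4.40% over the control clusters.

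**Figure D5:**
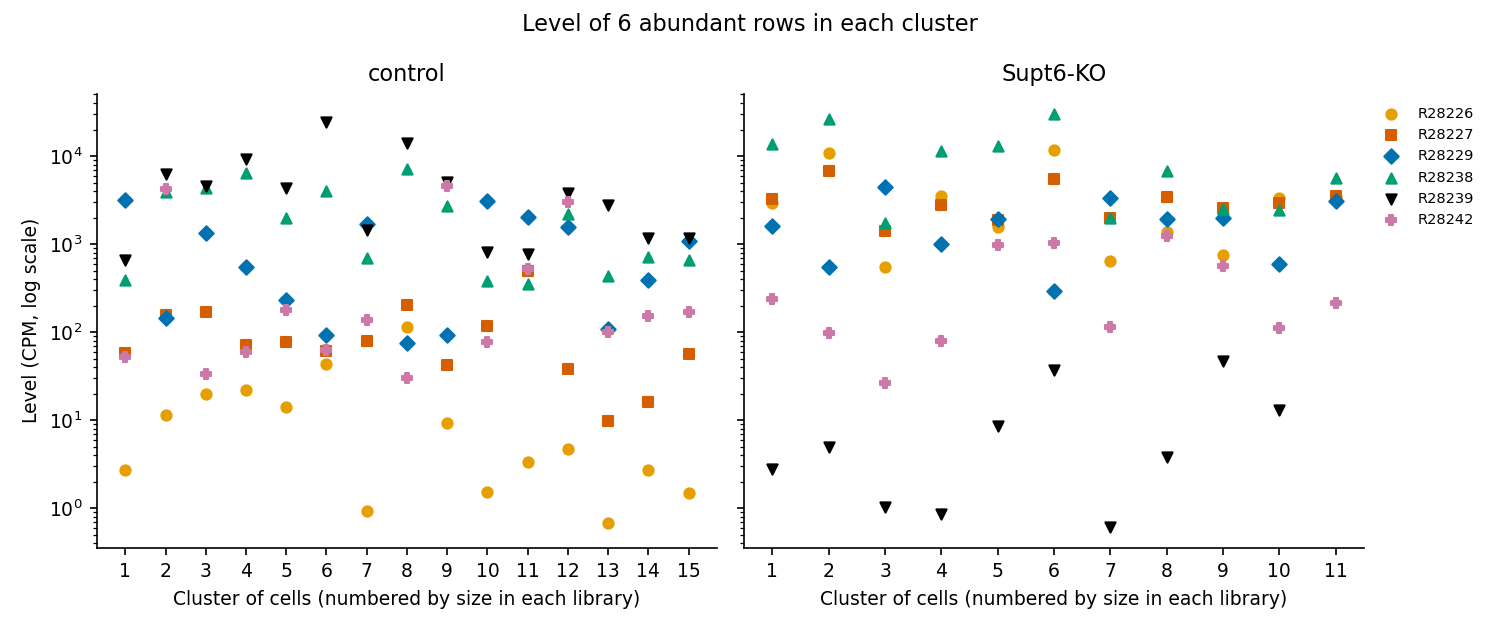
Level of the abundant window rows in each cluster of at least 100 cells, as CPM on a log axis, in control and *Supt6*-KO, with each point a cluster. R28239 lies between 667.5 and 24098 CPM in the control clusters and between 0 and 47.0 CPM in the *Supt6*-KO clusters.

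The rows most alike across cells were found by Pearson's r of log-scaled counts per 10000, given as a description because the cells share a library and their depth. Among 5160 rows compared in *Supt6*-KO, R28227 was the third most similar to R28226 (r = 0.63) and R28238 the twelfth (r = 0.53). Among 5625 rows compared in control, R28227 was the most similar to R28226 (r = 0.27) and R28239 was the second most similar to R28238 (r = 0.64). No window row was among the 20 rows most like R28229 in either library. From R28239, R28229 was the second least similar of all control rows compared (r = −0.58).

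Window rows were also compared between cells with and without R06163 or R06625, which lie in another stretch of the table. In the 3203 *Supt6*-KO cells with R06163, R28226 was at 7239 CPM and R28238 at 17358 CPM, against 4065 and 13693 CPM in the 8626 cells without it, and their median depths were 11244 and 7825.5 UMIs. In the 5955 control cells with R06625, R28239 was at 8786 CPM against 4891 CPM in the 2762 cells without it, and the median depths were 11710 and 7712.5 UMIs.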

How the data were processed

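The deposited values were raw UMI counts per gene and barcode, 1 matrix per library. The authors made them with Cell Ranger 7.1.0, which used STAR and the build GRCm39, and did not normalize them. The annotation release is not given in the sources used here. The reference at hand was of another build and was not used.

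Cells had at least 500 detected rows. Counts were summed per library and scaled to CPM, and a row passed the rule of size at 20 CPM in the higher library and a 2-fold difference. Log2 ratios used log2(CPM + 1). TMM factors came from edgeR 4.0.16. Clusters came from scanpy 1.11.5 and leidenalg 0.10.2 at a resolution of 0.5, on 2000 variable rows and 30 principal components, without the window rows. Odds ratios had 0.5 added to each cell of the table. Intervals were exact (scipy 1.17.1), Poisson for counts, binomial for shares and conditional for ratios. A floor of 3 UMIs was set for a count of 0.

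The named rows are R28226, R28238, R28239, every window row that reached 20 CPM in a library, and the 3 highest and 3 lowest pairs. Others named were chosen after their values were seen. The window and all choices were made with earlier results of these data known. The rule of size was tested on simulated data. Alternatives covered the cell filter, doublets, weighting, scaling, pseudocount, minimum level, fold, UMIs per cell, depth, odds ratio and detection limits, and resolution.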

Additional observations from a re-analysis of the deposited data

How the results depend on the processing

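With 1 library per group, no replicate could be left out and no interval covers the variation between mice. No paired analysis was possible because there was 1 library on either side and the results come from no test. Of 85 alternative values over 18 results, 51 stayed near the reported value, 34 moved and 0 reversed. The log2 ratio stayed between 7.69 and 7.87 for R28226, between 2.19 and 2.37 for R28238 and between −9.84 and −9.11 for R28239. The size rule gave 7 higher and 5 lower window rows at 1.5-fold, beside 11.9% and 34.8% of all rows of at least 20 CPM. With equal cell totals the R28239 share was 68.2% in control and 0.0698% in *Supt6*-KO, and the ratio of the summed pair was 1.58. That ratio was 1.5 with TMM factors, 1.35 without the 8% of cells with the highest Scrublet scores, where the control share was 70.6%, and 1.339 in cells with at least 1000 rows. The share of cells between 10% and 90% R28239 was 76.8% in control and 0.570% in *Supt6*-KO at 5 UMIs per cell, and 77.5% and 0.233% at 20 UMIs. Counts of exclusive and co-detected pairs depended most on the settings. With limits of 2 and 1/2 they were 10 co-detected and 10 exclusive in control, and 9 and 14 in *Supt6*-KO. In *Supt6*-KO, thinning to 1000 UMIs gave 2 co-detected pairs, of which 0 had been called at 2000 UMIs, and 1 exclusive pair, which had been. Thinning to 5000 UMIs gave 1 exclusive pair, which had not been called, so 0 of the 3 were recovered. R28229 and R28238 still gave 0.216 there, but R28238 was detected in more than 98% of cells and was not compared. Detection between 5% and 95% gave 0 of each, and a second random draw, chosen after seeing the data, gave 2 co-detected pairs and 4 exclusive pairs, of which 1 of each had been called in the first draw. Leaving out pairs with fewer than 10 joint cells expected, also chosen after seeing the data, left 2 exclusive pairs in *Supt6*-KO. At resolution 1.0 the control clusters ranged from 51.3% to 91.6%. The cause was not tested.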
